A study of Drosophila melanogaster with 2 samples.

Results

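Described here are the cytoplasmic ribosomal protein genes of Drosophila melanogaster, taken as the protein-coding genes whose symbol starts with RpL or RpS plus stubarista (sta), the gene of a further small-subunit protein. The rule finds 93 of the 13968 protein-coding genes on the chromosome arms, 54 for the large subunit and 39 for the small subunit, and uses no measured value. In these genes the data give the position and strength of chromatin immunoprecipitation peaks of GATAd, a transcription factor of the GATA family. The only group, GATAd-GFP, holds the biological replicates 2 and 3. Both come from the same fly line, a stable transgenic in which GATAd carries a C-terminal GFP tag, and each sample is whole wandering third-instar larvae of both sexes. By the sample description the antibody was against GFP, while another label names GATAd as the antibody. Neither the promoter of the transgene nor the presence of untagged GATAd is given in the sources used here, and a whole larva mixes all tissues. No other genotype, stage or antibody was set against this group, so every comparison below is between genes or between replicates, and is a description without a test.

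Each cytoplasmic ribosome holds a large subunit, which joins amino acids, and a small subunit, which reads the messenger RNA. Their proteins are needed in near equal numbers in every growing cell, and loss of a single copy of many of these fly genes gives the Minute phenotype of slow development and short bristles. In flies many of these genes start transcription at a pyrimidine-rich TCT initiator in place of the usual initiator, and several have a second copy that is used mainly in the germline. GATA factors are known to bind the letters GATA when an A or a T stands before them and an A or a G after them, here called the GATA word.

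The values come from 4 of the authors' peak lists on the genome build dm6. These are 30000 candidates for replicate 2, 30000 for replicate 3, 30000 for both replicates pooled, and 1205 peaks kept by the authors' irreproducible discovery rate (IDR) filter. The signal of a peak is the authors' own value per peak, on a scale that is not stated. Values are therefore compared mainly within a list, and a rank of 1 is the strongest peak of its list. Between replicates, signals are shown side by side and as a ratio set against its median over all IDR peaks. The read depth is unknown. The IDR peaks are exactly the 1205 strongest pooled candidates, with signals from 43.9 to 547, so a gene with an IDR peak has by construction a higher pooled signal than a gene without. A gene was assigned a peak when the summit lay within 1 kb of any of its transcription start sites (TSSs).

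An IDR peak lay at 21 of the 93 ribosomal protein genes (22.6%, Wilson 95% interval 15.3 to 32.1), against 8.77% of all protein-coding genes. The intervals given here cover the counting of genes only, and neighbouring genes can share a peak. Large-subunit genes had one in 10 of 54 cases (18.5%, interval 10.4 to 30.8) and small-subunit genes in 11 of 39 (28.2%, interval 16.5 to 43.8), and these intervals overlap. Among the large-subunit genes were RpL34b, RpL32, RpL7, RpL18, RpL14, RpL23A, RpL23, RpL35 and RpL41. Among the small-subunit genes were RpS27, RpS28b, RpS19b, RpS21, RpS5a, RpS7, RpS6, RpS19a, RpS3A and RpS10b. The median IDR signal was 89.1 over the 10 large-subunit genes and 61.8 over the 11 small-subunit genes, with ranges of 44.1 to 138 and 44.7 to 123. Over all 21 genes the median was 63.9, against 69.2 over all 1225 genes with an IDR peak, so these genes were more often listed but were not placed higher in the list than others.

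**Figure D1:**
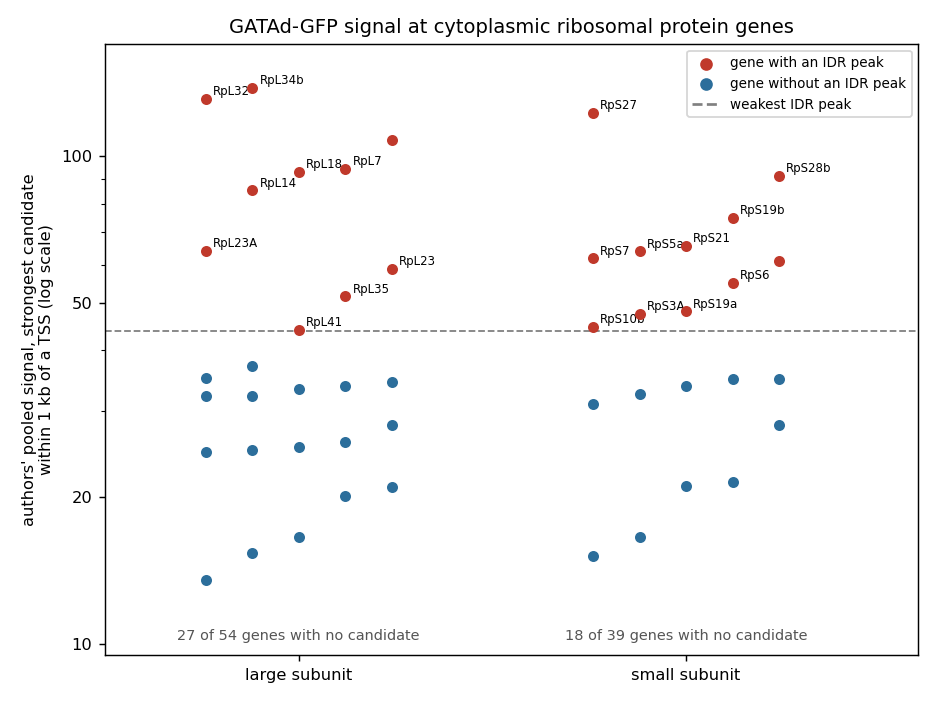
Authors' pooled signal (log scale) of the strongest candidate within 1 kb of a TSS, 1 point per ribosomal protein gene, spread sideways for legibility and named where the text gives the gene, with the large subunit on the left and the small subunit on the right. Red genes have an IDR peak and lie above the dashed line at 43.9, blue genes do not, and 27 of 54 large-subunit and 18 of 39 small-subunit genes had no candidate.

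Each replicate gave a similar excess when its 1205 strongest peaks were used alone. In replicate 2 such a peak lay at 19 of the 93 genes (20.4%, against 7.97% of all genes), and in replicate 3 at 20 (21.5%, against 9.34%). Both replicates had one at 10 genes (10.8%, against 5.39%). With candidates of any strength, the IDR peaks included, the difference was smaller. A pooled candidate was present at 48 of the 93 genes (51.6%, against 46.3% of all genes), a replicate 2 candidate at 50 (53.8%, against 44.6%) and a replicate 3 candidate at 59 (63.4%, against 53.9%). Among genes without an IDR peak, a pooled candidate was present at 27 of 72 ribosomal protein genes (37.5%), against 41.1% of all genes. By subunit, the strongest peaks of replicate 2 lay at 16.7% of large-subunit and 25.6% of small-subunit genes, and those of replicate 3 at 18.5% and 25.6%. With candidates of any strength the order differed between replicates. Replicate 2 had one at 48.1% of large-subunit and 61.5% of small-subunit genes, and replicate 3 at 66.7% and 59%.

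**Figure D2:**
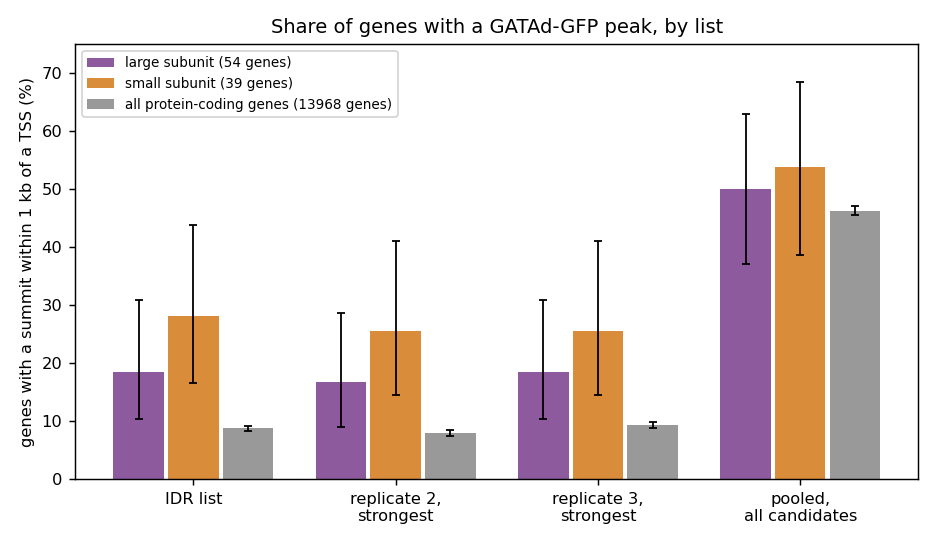
Percentage of genes with a summit within 1 kb of a TSS in the IDR list, in the 1205 strongest peaks of each replicate and among all pooled candidates, for large-subunit genes, small-subunit genes and all protein-coding genes, with Wilson 95% intervals. Both subunits lie above all genes in the 3 lists of strong peaks, the subunits' intervals overlap in each list, and among all pooled candidates the shares are 50%, 53.8% and 46.3%.

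To set the starts of some of these genes beside the peaks, the 70 bases before and the first 20 bases of the transcript are given. The genes shown lie on the arms X, 3L and 3R, and the bases were read from the Release 6 reference sequence, which is dm6. Capitals mark the GATA word and the DNA replication-related element (DRE, TATCGATA) on either strand, and the TCT initiator (CCTTTCTT, CCTTTTTT, TCTTTCTT or TCTTTTTT on the gene's strand) within 10 bp of the start. Shown first are the strongest peaks at RpL34b, RpL32, RpS27 and RpL14 and, for its DRE, RpS6. All windows are 5′ to 3′ on the strand of the gene.
RpL34b (chr3R:9401207-9401296, minus strand): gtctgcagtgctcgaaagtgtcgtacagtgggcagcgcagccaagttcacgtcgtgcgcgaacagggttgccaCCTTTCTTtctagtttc
RpL32 (chr3R:30046142-30046231, minus strand): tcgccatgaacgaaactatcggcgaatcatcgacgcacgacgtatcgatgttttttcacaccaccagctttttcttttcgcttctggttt
RpS27 (chr3R:25247495-25247584, minus strand): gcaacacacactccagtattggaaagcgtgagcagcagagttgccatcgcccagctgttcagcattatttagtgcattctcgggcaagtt
RpL14 (chr3L:8600936-8601025, plus strand): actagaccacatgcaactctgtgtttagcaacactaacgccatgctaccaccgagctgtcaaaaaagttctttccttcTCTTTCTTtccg
RpS6 (chrX:7901312-7901401, minus strand): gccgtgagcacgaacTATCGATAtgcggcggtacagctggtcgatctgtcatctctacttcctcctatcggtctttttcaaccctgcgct

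Among the large-subunit genes, RpL34b had the highest signal, 138 in the pool (3R, 9401078 to 9401461, rank 105), with 69.1 in replicate 2 and 69.5 in replicate 3. A second IDR peak that overlaps it (3R, 9401278 to 9401661) had 74.3 in the pool, 15.4 in replicate 2 and 37.0 in replicate 3. RpL34b was therefore the only one of the 93 genes with more than 1 IDR peak. As the peaks overlap and the second summit lies 25 bp from CG8132, they need not be separate sites of RpL34b. Both had a ratio of replicate 3 to replicate 2 above the median of all IDR peaks. RpL32, whose messenger RNA is widely used as a reference in fly expression studies, had 131 in the pool (3R, 30046053 to 30046436, rank 120), 77.6 in replicate 2 and 55.5 in replicate 3. RpL32 and the stronger peak of RpL34b thus ranked among the 177 strongest of each replicate.

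RpL7 had 94.3 in the pool (2L, 10200839 to 10201222, rank 246) and 47.1 in replicate 3, but no candidate of replicate 2 overlapped the peak. It is the only IDR peak of these genes that is missing from a replicate list. RpL18 had 93.0 in the pool, 39.7 in replicate 2 and 51.2 in replicate 3, so it was strong in both. RpL14 had 85.2 in the pool, 61.5 in replicate 2 (rank 175) and 23.3 in replicate 3 (rank 1314). RpL23A, at the exit of the peptide tunnel where the signal recognition particle docks, had 63.9 in the pool, 46.7 in replicate 2 (rank 325) and 16.1 in replicate 3 (rank 2944). Both of these peaks were placed much higher in the replicate 2 list than in that of replicate 3. The remaining large-subunit genes were lower in the pool, with 58.9 at RpL23, 51.7 at RpL35, a neighbour of RpL23A at the tunnel exit, and 44.1 at RpL41, which encodes a very short peptide of the subunit. RpL41 ranked 1197 of the 1205.

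Among the small-subunit genes RpS27, which encodes a zinc-finger protein, was highest with 123 in the pool (3R, 25247353 to 25247736, rank 137), 67.6 in replicate 2 and 55 in replicate 3. RpS28b had 91.2 in the pool, 30.9 in replicate 2 (rank 816) and 58.2 in replicate 3 (rank 156). RpS19b had 74.8, 43.5 and 30.6 in the same lists. All 3 stood among the 1205 strongest in both replicates. RpS21 had 65.6 in the pool, with 28.5 in replicate 2 and 36.9 in replicate 3. RpS5a, whose protein lines the channel by which messenger RNA leaves the ribosome, had 63.9 in the pool, 43.9 in replicate 2 (rank 369) and 13.2 in replicate 3 (rank 4784). RpS6, the target of the growth-regulated S6 kinase, had 55.1 in the pool, 24.1 in replicate 2 and 27 in replicate 3. RpS21 is thus in the top of both lists, RpS5a of replicate 2 alone and RpS6 of replicate 3 alone. RpS7 had 61.8 in the pool, and the weakest were RpS19a with 48.1, RpS3A with 47.6 and RpS10b with 44.7.

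A lower share of these peaks than of IDR peaks in general was strong in both replicates, though with only 22 peaks and no test. With each IDR peak matched to the overlapping candidate of nearest summit, 9 of the 22 peaks at ribosomal protein genes (40.9%) were among the 1205 strongest of both replicates, against 626 of all 1205 (52%). Among the strongest of replicate 2 were 17 of the 22 (77.3%), against 75.6% of all IDR peaks, and among those of replicate 3 were 13 (59.1%), against 70.1%. The log2 ratio of replicate 3 to replicate 2, set against its median in all IDR peaks, was -0.31 at the median of the 21 peaks with both values. Its SD was 0.82 there, against 0.75 in the 1168 IDR peaks with both. Toward replicate 3 the most extreme were the second RpL34b peak (1.46), RpS28b (1.11) and RpS7 (0.66). Toward replicate 2 they were RpS5a (-1.54), RpL23A (-1.34) and RpL14 (-1.20). Each ratio rests on a single library a side and carries no error estimate.

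**Figure D3:**
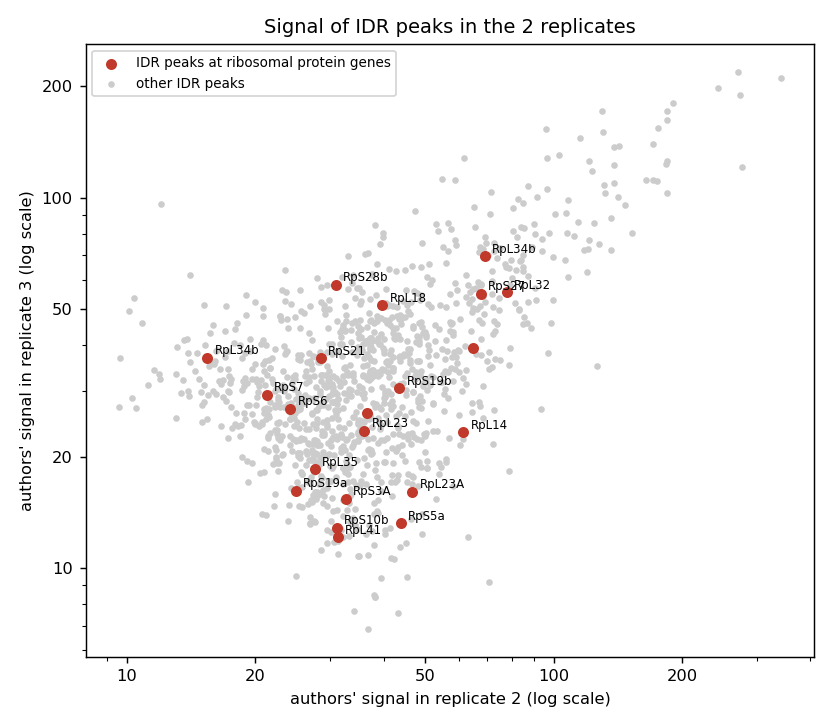
Authors' signal of each IDR peak in replicate 2 (x axis) and replicate 3 (y axis), both on log scales, with the 21 peaks at ribosomal protein genes that have both values in red and other IDR peaks in grey. RpL34b, RpL32 and RpS27 are high on both axes, while RpS5a, RpL23A and RpL14 are higher on the x axis and the second RpL34b peak and RpS28b on the y axis. RpL7 has no value in replicate 2 and is not drawn.

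The summits lay just upstream of the start. Of the 21 genes 20 had the summit of the strongest IDR peak upstream of the nearest TSS and 1, RpL7, had it 27 bp downstream, against 1036 upstream of 1204 other genes with an IDR peak. The median distance was 84.0 bp for the ribosomal protein genes and 148 bp for the other genes, and 12 of 21 (57.1%) lay within 100 bp, against 34.1%. The closest were RpS21 at 4 bp, RpS6 at 10 bp, RpL14 at 12 bp and RpS19a at 13 bp. The same held among all pooled candidates, where the median distance was 82.5 bp over 48 ribosomal protein genes and 284 bp over 6419 other genes.

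**Figure D4:**
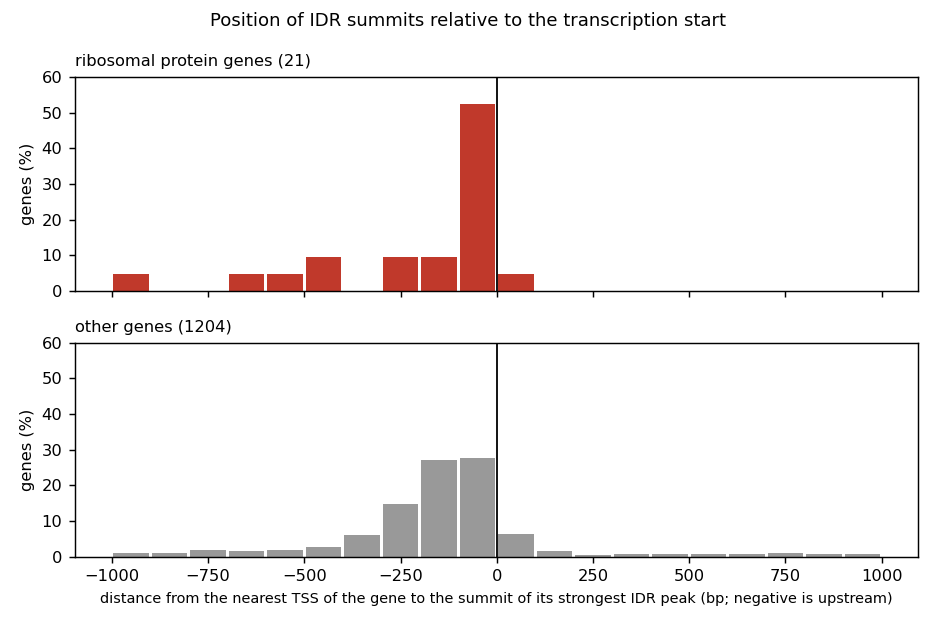
Percentage of genes by the signed distance from their nearest TSS to the summit of their strongest IDR peak, in bins of 100 bp, for 21 ribosomal protein genes (top) and 1204 other genes (bottom). The tallest bin of the top panel, with 11 of 21 genes, is the 100 bp before the start, while in the bottom panel the 100 bp before the start and the 100 bp before that hold 27.8% and 27.1%.

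Most of these peaks were shared with a gene read in the other direction. Of the 22 IDR peaks 19 (86.4%) also lay within 1 kb of a TSS of another protein-coding gene, each on the opposite strand, against 387 of the 819 IDR peaks (47.3%) at other genes that had genes of both strands within that distance. The exceptions were RpL23A, RpS3A and RpS10b. Whatever the peaks, 18 of the 21 genes with an IDR peak (85.7%) and 38 of the 72 without (52.8%) had a TSS of the opposite strand within 1 kb of their own. Over all genes it was 69.9% of those with an IDR peak and 33.6% of those without, so a near opposite start went with a peak in all genes too. Split by that neighbour, an IDR peak lay at 18 of the 56 ribosomal protein genes with it (32.1%) and at 3 of the 37 without it (8.11%), against 16.7% of all 5141 genes with such a neighbour and 4.18% of all 8827 without. The share in ribosomal protein genes was thus above that of all genes in both classes, though the class without a neighbour holds only 3 peaks.

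The ribosomal protein gene was the nearest gene for 14 of the 22 peaks. The partner was the nearer gene at RpL18, where the summit was 184 bp from RpL18 and 93 bp from Neos. The same holds for RpL35, with its summit 538 bp away and 51 bp from the small GTPase gene Rab18, and for RpL23, 71 bp from CG13531. At RpS28b and RpS19b the summits lay 699 bp and 930 bp from the ribosomal gene, and 174 bp from l(1)G0320 and 548 bp from CG5854. The second RpL34b peak was 25 bp from CG8132. Elsewhere the ribosomal gene was nearer. RpS27 was 31 bp from its summit and Nup37, a nuclear pore gene, 113 bp, and RpL14 was 12 bp away and Nelf-E, which encodes a subunit of the negative elongation factor, 115 bp. RpL7 and Ripalpha were 27 bp and 57 bp away, RpL41 and the sodium channel gene NaCP60E 39 bp and 143 bp. RpL32 with CG7943 (84 bp and 225 bp), RpS21 with CG3104 (4 bp and 288 bp) and RpS6 with bys, a ribosome biogenesis gene (10 bp and 539 bp), followed the same order. Chchd2 at RpS5a and Anp at RpS7 were 637 bp and 861 bp from the summits. The lists do not say which gene of a pair a peak belongs to.

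By symbol alone, the genes fall into 13 families, of 27 genes, here called duplicated, and 66 single genes. Protein identity within a family ran from 19.2% (RpLP0 and RpLP0-like) and 27.8% (RpL24 and RpL24-like) to 100% (RpS14a and RpS14b). A shared symbol does not by itself make 2 genes copies of each other, least of all in the families of low identity. An IDR peak lay at 7 of the 27 family genes (25.9%) and at 14 of the 66 single genes (21.2%). Of the families 6 had an IDR peak, 5 at a single gene and 1, RpS19, at both copies, while 7 had none. The summits at RpS19b and RpS28b lay nearer a partner gene, CG5854 and l(1)G0320. With each peak given to its nearest gene alone, 5 families had one. Both starts are given for 4 families, since the copies differ in signal. RpS14 is shown because its adjacent copies encode the same protein from starts that differ.
RpL34a (chr3R:26059248-26059337, minus strand): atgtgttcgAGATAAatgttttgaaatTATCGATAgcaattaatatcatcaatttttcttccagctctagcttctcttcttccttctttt
RpS5a (chrX:17148245-17148334, minus strand): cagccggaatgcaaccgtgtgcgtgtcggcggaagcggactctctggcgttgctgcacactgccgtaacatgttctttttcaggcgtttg
RpS5b (chr3R:14901544-14901633, minus strand): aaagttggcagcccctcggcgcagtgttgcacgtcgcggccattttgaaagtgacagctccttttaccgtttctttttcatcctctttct
RpS28b (chrX:9554553-9554642, plus strand): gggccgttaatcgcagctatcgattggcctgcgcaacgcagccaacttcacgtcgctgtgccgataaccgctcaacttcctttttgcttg
RpS28a (chr3R:30022629-30022718, minus strand): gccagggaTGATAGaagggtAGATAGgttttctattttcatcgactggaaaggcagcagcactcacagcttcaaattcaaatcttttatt
RpS19a (chrX:16637824-16637913, plus strand): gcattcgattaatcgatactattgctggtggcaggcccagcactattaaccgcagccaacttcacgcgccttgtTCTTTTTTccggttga
RpS19b (chr3R:23933511-23933600, minus strand): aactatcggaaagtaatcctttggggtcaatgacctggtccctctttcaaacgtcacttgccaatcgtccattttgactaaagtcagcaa
RpS14a (chrX:7933672-7933761, plus strand): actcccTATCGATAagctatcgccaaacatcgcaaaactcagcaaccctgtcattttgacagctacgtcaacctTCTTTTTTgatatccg
RpS14b (chrX:7934828-7934917, plus strand): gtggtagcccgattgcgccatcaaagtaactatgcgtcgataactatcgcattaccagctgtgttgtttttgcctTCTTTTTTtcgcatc

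In the RpL34 family RpL34b had the strongest peak of all ribosomal protein genes, while RpL34a, whose protein is 79.5% identical, had no pooled and no replicate 2 candidate, and 21.3 in replicate 3 (rank 1592). RpS5a had an IDR peak of 63.9, while RpS5b, 79.4% identical in protein and used mainly in the female germline, had only 16.6 in the pool (rank 16929). RpS28b had 91.2, while RpS28a (81.5% identical) and RpS28-like (38.2%) had no candidate in any list. RpL7 had 94.3 and RpL7-like (33.3% identical) had 20.1. RpS10b had 44.7 and RpS10a (72.9% identical) had 21.1. In these 5 families the pooled signal of the listed gene was thus above that of every other gene of the family, which the definition of the list requires.

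RpS19a and RpS19b both had an IDR peak, with 48.1 and 74.8 in the pool. Their summits lay 13 bp and 930 bp upstream of the start, so the higher peak is the more distant. The RpS14a and RpS14b genes, whose proteins are identical, have starts 1156 bp apart on the X. In windows of 577 bp each side of the starts, which do not overlap, the longest stretch in common was 138 bp, and how reads that match both copies were placed is not stated. Their pooled signals of 32.6 and 33.8 were nearly the same. In the other families the longest stretch in common within 1 kb of the starts was 26 bp or less. Of the 7 families without an IDR peak, RpLP0 (37.1 in the pool), RpL24 (34.4), RpL10Ab (33.4), RpS15Aa (31.1) and RpL37-1 (21) had weaker candidates, and RpL22 and RpL22-like, of which the second is used mainly in the testis, had none in any list. RpL10Aa had 16.6, and RpLP0-like, RpL24-like, RpS15Ab and RpL37-2 had no pooled candidate.

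**Figure D5:**
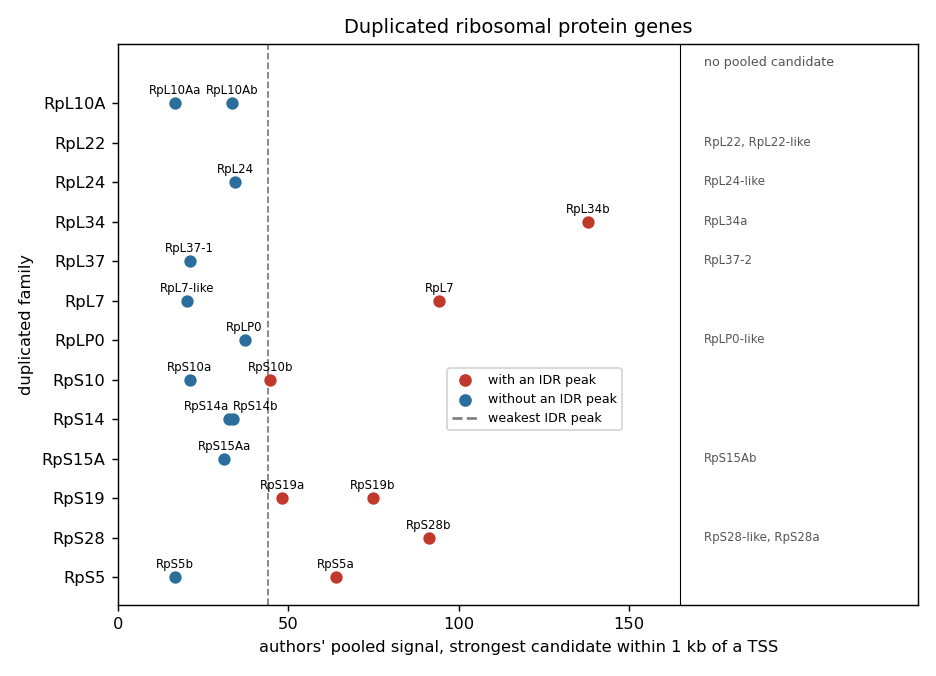
Authors' pooled signal of the strongest candidate within 1 kb of a TSS for each gene of the 13 duplicated families, with red for genes with an IDR peak and blue for those without. The dashed line at 43.9 is the weakest IDR peak, and genes with no pooled candidate stand at the right. RpS19 is the only family with both genes above the line, though the summit at RpS19b lies nearer CG5854.

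The 72 genes without an IDR peak fall into 27 with a weaker pooled candidate, of median signal 28.1, and 45 with none. Just below the list stood RpLP0, the base of the ribosomal stalk, with 37.1 in the pool, 24.3 in replicate 2 and 12.7 in replicate 3. RpL10 had 35.1 in the pool, no candidate in replicate 2 and 29.8 in replicate 3 (rank 801). RpS23 had 35.0, RpS12 34.9 and RpL24 34.4. No ribosomal protein gene had a pooled value between 37.1 at RpLP0 and 44.1 at RpL41, so the genes just inside and just outside the list are apart by more than 5 of these units. Over the 48 genes with a pooled candidate the median was 34.9, against 21.5 over all 6467 genes with one, and the median rank was 1837 against 7098. The candidates at these genes were thus high in the list when they were present, though genes had to have a candidate to count.

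Of the 45 genes without a pooled candidate, 23 had no candidate in either replicate. Among them were RpL11, RpL22, RpL22-like, RpL24-like, RpL26, RpL29, RpL31, RpL35A, RpL37-2, RpL38, RpL6, RpLP1, RpS13, RpS15Ab, RpS2, RpS24, RpS25, RpS28-like, RpS28a, RpS3 and RpS9. The 23 are 51.1% of the 45, against 55.3% of all 7501 genes without a pooled candidate. A further 15 had a candidate in replicate 3 alone, 5 in replicate 2 alone and 2, RpS29 and RpL40, in both. RpS29 had 40.7 in replicate 2 (rank 441) and 22.7 in replicate 3 (rank 1388), yet no pooled candidate. It is the only one of the 93 genes (1.08%) that has a top replicate 2 peak without a pooled candidate, against 0.265% of all genes.

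Replicate 3 had strong peaks at 6 ribosomal protein genes (6.45%, against 1.45% of all genes) where the pool had no candidate. RpL28 had 41.0 (rank 393) and RpS20 had 38.5 (rank 456). RpL12, at the base of the stalk, had 28.6 (rank 887), RpL27A 28.3 (rank 910), RpL36 27.3 (rank 991) and RpS27A, made as a fusion to ubiquitin, 24.6 (rank 1200). In none of the 6 did the pooled list hold an overlapping candidate, and its nearest summit lay from 4155 bp away at RpL36 to 12011 bp away at RpL28. By peak, 6 of the 23 peaks of ribosomal protein genes in the top of replicate 3 (26.1%) had no overlapping pooled candidate, against 12.4% of the whole top. In replicate 2 it was 1 of 21 (4.76%), against 2.49%.

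The nearest pooled summit was either close to a ribosomal protein gene or far away. The median distance from a TSS was 861 bp for the 93 genes, against 1203 bp for 13852 other genes, but 27 of the 93 (29.0%) had none within 5 kb, against 19.5%. Over the 45 genes with no pooled candidate within 1 kb the median was 6839 bp, against 3474 bp over 7433 other such genes. In replicate 2 it was 5474 bp over the 45, against 2760 bp, and in replicate 3 it was 1659 bp, against 1725 bp. The excess of empty surroundings was thus seen in the pool and in replicate 2 but not in replicate 3, and no list says why a region holds no candidate.

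By chromosome arm, the X had an IDR peak at 6 of its 15 ribosomal protein genes (40.0%), against 8.79% of all X genes. Arm 3L had 4 of 14 (28.6%, against 9.35%), 3R had 5 of 23 (21.7%, against 9.70%), 2R had 3 of 21 (14.3%, against 7.19%) and 2L had 2 of 19 (10.5%, against 8.92%). RpS3A is the only ribosomal protein gene on the small chromosome 4, where 2 of 80 genes had a peak. No pooled candidate was found at 16 of 21 genes on 2R (76.2%, against 56.5% of all genes there), 11 of 19 on 2L (57.9%, against 54.3%), 12 of 23 on 3R (52.2%, against 52.7%), 3 of 14 on 3L (21.4%, against 50%) and 3 of 15 on the X (20%, against 55.9%). The differences between arms were not tested.

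By role in the ribosome, and beside the 8.77% of all genes with an IDR peak and 46.3% with a pooled candidate, the rim of the peptide exit tunnel had an IDR peak at 2 of 7 genes, RpL23A and RpL35, and the messenger RNA exit channel at 2 of 7, RpS5a and RpS28b. At that channel 6 of 7 genes had a pooled candidate, from 16.6 at RpS5b to 91.2 at RpS28b. None of the 4 genes of the stalk and its base had an IDR peak (RpLP0, RpLP1, RpLP2 and RpL12), nor the 2 of the 5S particle, RpL5 with 24.7 and RpL11 with no candidate. The 3 genes of the messenger RNA entry channel, RpS2, RpS3 and RpS9, and the 3 made as fusions to ubiquitin or a like protein, RpL40, RpS27A and RpS30, had no pooled candidate. With 2 to 7 genes a role, these counts show no order of roles.

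The GATA word was less frequent at these peaks than at all IDR peaks together, and DRE more frequent. By the rule all 22 peaks lie within 1 kb of a TSS. Of the other IDR peaks only 819 do, and the rest of the 1205 lie further from any protein-coding start. The share of either word among IDR peaks near a TSS alone was not computed, so the differences may reflect promoters in general. Within 100 bp of the summit the GATA word lay at 5 of the 22 peaks (22.7%), against 41.2% of all 1205 IDR peaks. The 5 were the second RpL34b peak, RpL23A, RpS5a, RpL23 and RpS19a, and the highest peaks at RpL34b, RpL32 and RpS27 held none. DRE, the site of a factor known at promoters of growth and replication genes, lay at 5 of the 22 (22.7%), against 5.81%. Among these were RpS7, RpS6, RpS10b and RpL41. No peak held both. The windows at ribosomal protein genes had a median GC content of 43.5%, against 36.3% at all IDR peaks, and GATA words are rich in A and T; the part of base composition in the difference was not tested.

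In the 300 bp promoters, from 250 bp before to 50 bp after the gene start, the GATA word lay in 9 of 21 ribosomal protein genes with an IDR peak (42.9%) and in 42 of 72 without (58.3%), against 46.7% of all promoters. DRE lay in 5 of 21 (23.8%) with a peak and 23 of 72 (31.9%) without, against 9.36% of all promoters, and DRE contains the letters GATA but not the GATA word as searched. Neither word was therefore more common at the genes with a peak than at those without. The TCT initiator as spelled above lay within 10 bp of an annotated start of 25 of the 93 genes (26.9%), against 70 of all 13968 (0.501%), so these genes make up 25 of the 70. An IDR peak lay at 7 of the 25 genes with it (28.0%) and at 14 of the 68 without (20.6%), against 20% of all 70 genes with it and 8.71% of all 13898 without. These strict spellings miss related pyrimidine runs, as in the start of RpL32 shown above, and a match is a description of letters and not a site.

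Set beside related gene groups, the cytoplasmic ribosomal protein genes had an IDR peak in 22.6% of cases, against 12 of 73 mitochondrial ribosomal protein genes (16.4%), 5 of 28 ribosome biogenesis genes (17.9%), 5 of 52 translation factors (9.62%) and 8.77% of all genes. Their pooled candidates had a median signal of 34.9 at 48 genes, against 39.7 at 31 mitochondrial ribosomal protein genes, 31 at 13 biogenesis genes and 26.7 at 14 translation factors. These groups were not tested against each other.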

How the data were processed

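Peaks of GATAd in whole larvae were deposited as lists on dm6 and dm3. Per the deposited file records, the authors made candidates from the alignments of each replicate and of the pool, and an IDR list from these. The labels name a possible control experiment, and the records do not say how it entered the values. The aligner is not given in the sources used here, nor are the peak caller and the threshold of the IDR step. Values of signal from the authors, column 7 of each list, were used as deposited, and the lists on dm3 were not used here. Read depth is unknown. Summits (start plus offset, made 1-based) were assigned to all genes with a TSS within 1 kb, with protein-coding genes and transcripts from Ensembl release 115, whose coordinates are those of dm6, and 0 peaks ran past the end of an arm. Families are symbols equal after removal of a final a or b, -like, -1 or -2, and protein identity is from a global BLOSUM62 alignment of the longest coding sequences. The assignment was tested on simulated data. No significance test was made, as there is 1 group and genes are not replicates. The genes named are those with an IDR peak, those of families, the 5 highest without an IDR peak, those without a candidate, partners in a peak and the 3 furthest replicate ratios either way. Genes named by role, or for a strong peak in replicate 3 or 2 alone, were chosen after their values were seen, and genes and lists were chosen with earlier results of these data known. Python 3.11.15, pandas 2.3.3 and Biopython 1.88 were used. Other distances, assignments, thresholds and single replicates were tried as alternatives. A few genes counted in the totals are not reported here by name.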

Additional observations from a re-analysis of the deposited data

How the results depend on the processing

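The counts of ribosomal protein genes with an IDR peak (21), of large-subunit genes (10), of small-subunit genes (11) and of families (6) were recomputed under 10 alternatives. Of these 40 values 35 stayed within 1.5 times the main count and 5 did not. In 1 alternative the -like genes were left out. It could not change the gene counts, since no -like gene had an IDR peak, and its family count still used all 13 families. With the IDR peaks above the list's median signal alone the counts were 10 genes, 6 of the large and 4 of the small subunit, from a list with fewer peaks. With summits within 250 bp the small-subunit count was 7, and with each peak given to its nearest gene alone the large-subunit count was 6, since several summits lie nearer a partner gene. Among these 10 alternatives, the order of the subunits by share turned only with the peaks above the median signal (11.1% large, 10.3% small). It was 14.8% and 17.9% within 250 bp. Outside these alternatives, replicate 3 candidates of any strength also had the higher share in the large subunit. With 1 replicate left out, using the 1205 strongest peaks of the other, the counts ran from 19 to 20 genes, from 9 to 10 large-subunit genes, 10 small-subunit genes, and from 4 to 5 families. Of the 21 genes 18 had a strong peak in the list of replicate 2 and 13 in that of replicate 3, and a gene can count in both. The share of all genes changed with these settings too, from 4.93% to 10.7%. Depth limits these statements to presence in a list: a missing candidate is not an absence of binding.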
